A study of Homo sapiens with 4 samples.

Results

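The genes described here carry symbols of enzyme families that add methyl groups to histone lysines or remove them. They are the 60 protein-coding genes of the RefSeq GRCh38.p14 table whose symbols start with KMT, KDM, PRDM or SMYD, or with NSD or SETD and a digit, out of 20033 protein-coding genes on chromosomes 1 to 22, X and Y. The 25 KMT, NSD, SETD and SMYD genes are called writers and the 20 KDM genes erasers. These names follow the symbol: not every such gene encodes an enzyme known to act on histones, and other such enzymes carry other symbols. The 15 PRDM genes form a class of their own, because their PR domain is related to the methyltransferase domain while only some of them are known to be active enzymes. Peaks were taken from CUT&Tag of CHAF1A in RBE, a human cell line established from an intrahepatic bile duct cancer. CHAF1A is the large subunit of CAF-1, the chaperone that deposits histones behind replication forks. In CUT&Tag an antibody directs a transposase to chromatin, and sequenced fragments pile up where it cuts.

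Both groups were transfected with a lipid reagent and collected 48 hours later, and no other modification is stated. The siRNA was a control in 2 samples and targeted CHAF1A in the other 2. There is 1 peak list per group, read from its name as the control list (NC) or the siRNA list (si), and neither keeps its 2 samples apart. No difference between the lists therefore has a replicate check, and none is tested. The control list held 76313 peaks and the siRNA list 97653. Solved from fold and p, the most common local background was 6.34 reads in the control list and 8.49 in the siRNA list (1.34 times as many), so weaker sites could pass the siRNA threshold. No library without the antibody was used here, so binding of CHAF1A and plain accessibility of the DNA cannot be told apart at a peak. As a check of the cell type, 5 of 6 biliary genes (among them KRT7, KRT19, EPCAM and SOX9) had a control peak at a gene end, against 1 of 6 hepatocyte genes (SERPINA1). In the siRNA list the counts were 4, without KRT7, and 1. In the control list 1 of 5 immune, 1 of 4 endothelial and 1 of 4 fibroblast genes had one (2, 2 and 1 in the siRNA list), and a peak is no measure of RNA. CHAF1A RNA and protein were not analysed here, so the knockdown itself was not checked.

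Methyl groups on histone lysines mark chromatin states. Methylation of lysine 4 of histone H3 accompanies promoters and enhancers, that of lysine 36 accompanies transcribed gene bodies, and that of lysines 9 and 27 accompanies silent chromatin. Most writers use a SET domain. Erasers are either flavin-dependent amine oxidases (KDM1A and KDM1B) or iron-dependent JmjC dioxygenases (the other KDM families). CAF-1 delivers newly made histones that lack most of these marks, so writers have to restore them after each replication.

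Annotated starts with their sequences were given for 53 of the 60 genes. Only starts whose preceding bases lie outside every annotated gene were considered, which leaves out stronger writer starts such as those of KMT2E, inside KMT2E-AS1, and of SETD9, inside the gene itself. Among these, the bases are shown for the start of each class with the highest control −log10 q whose 2 summits lie in them (SMYD5, KDM4A and PRDM4). They are followed by 2 contrasts, under the same limit, without a peak within 1 kb of any start of the gene: the one with most CpG dinucleotides (PRDM15) and the one with fewest (KDM4F). All are RefSeq sequences of GRCh38.p14, 5′ to 3′ on the strand of the gene, and each ends at the base before the start. Capitals mark matches on either strand to the motifs searched.

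SMYD5, chr2:73213995-73214244, plus strand: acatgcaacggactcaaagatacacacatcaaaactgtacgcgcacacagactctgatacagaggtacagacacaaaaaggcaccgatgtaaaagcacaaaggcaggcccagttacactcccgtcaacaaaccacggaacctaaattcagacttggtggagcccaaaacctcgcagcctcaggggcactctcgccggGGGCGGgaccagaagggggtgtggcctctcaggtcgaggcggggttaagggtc
KDM4A, chr1:43649899-43650148, plus strand: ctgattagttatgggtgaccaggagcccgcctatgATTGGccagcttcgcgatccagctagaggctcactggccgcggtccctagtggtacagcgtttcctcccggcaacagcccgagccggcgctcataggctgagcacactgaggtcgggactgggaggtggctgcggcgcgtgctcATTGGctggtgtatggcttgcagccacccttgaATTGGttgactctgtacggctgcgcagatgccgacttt
PRDM4, chr12:107761138-107761387, minus strand: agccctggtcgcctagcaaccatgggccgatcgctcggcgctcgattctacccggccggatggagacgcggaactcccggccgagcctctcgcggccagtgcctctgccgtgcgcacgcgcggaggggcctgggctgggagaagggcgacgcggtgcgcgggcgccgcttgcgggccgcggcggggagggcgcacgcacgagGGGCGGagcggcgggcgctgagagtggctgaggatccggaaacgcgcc
PRDM15, chr21:41879345-41879594, minus strand: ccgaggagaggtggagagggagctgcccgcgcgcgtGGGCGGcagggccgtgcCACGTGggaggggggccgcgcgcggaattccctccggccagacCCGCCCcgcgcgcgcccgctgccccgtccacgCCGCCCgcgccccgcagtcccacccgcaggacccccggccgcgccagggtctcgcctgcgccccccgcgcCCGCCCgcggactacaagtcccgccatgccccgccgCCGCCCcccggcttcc
KDM4F, chr11:95049172-95049421, plus strand: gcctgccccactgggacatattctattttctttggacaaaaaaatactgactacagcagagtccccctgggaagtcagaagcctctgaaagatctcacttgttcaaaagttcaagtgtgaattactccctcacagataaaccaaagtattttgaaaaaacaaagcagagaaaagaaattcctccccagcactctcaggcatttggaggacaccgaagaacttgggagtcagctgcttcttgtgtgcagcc

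In KDM4A the control and siRNA summits both lay 56 bases before the start, between CCAAT boxes read on the opposite strand (ATTGG) that begin at positions -71 and -38, and a further box begins at -215. In PRDM4 the summits lay at -118 and -117, and a GC box (GGGCGG) begins at -48. In SMYD5 they lay at -9 and -4, and a GC box begins at -53. The window of PRDM15 held 41 CpG and 5 GC boxes with no peak in either list, and that of KDM4F held 1 CpG. A GC box or CpG-rich sequence was thus also found where neither list had a peak. A match is a description of the letters and does not show that a factor binds there.

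The first comparison asks how many of the genes have a peak at a gene end, meaning within 1 kb on either side of either annotated boundary. In the control list 40 of the 60 genes had one (66.7%, against 61.1% of all protein-coding genes), and in the siRNA list 43 (71.7%, against 64.3%). With −log10 q, the strength of evidence within a list, of at least 10, the order of the lists turned. Then 38 of 60 genes had a control end peak (against 50.7%) and 36 of 60 a siRNA one (against 51.2%). Among PRDM genes 5 and 4 did. For all listed peaks the shares of the whole set were somewhat above those of all protein-coding genes. At the threshold of 10 they were further above them. The classes differed in their counts. Writers had 21 of 25 in each list (84.0%), erasers 14 of 20 in each list (70.0%), and PRDM genes 5 of 15 in the control list (33.3%) and 8 of 15 in the siRNA list (53.3%). With the PRDM genes counted as writers, the writers had 26 and 29 of 40. In both lists at once 39 genes had an end peak (65.0%, against 56.2%), and 16 had none in either (26.7%, against 30.8%).

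RefSeq boundaries miss some starts, because a gene's longest extent can reach past the start in common use. Within 1 kb of an annotated start, 44 of the 53 genes with a given start had a control peak (83.0%, against 62% of all protein-coding genes with a given start). In the siRNA list 45 had one (84.9%, against 64.9%). Writers had 21 and 20 of 23, erasers 17 in each list of 19, and PRDM genes 6 and 8 of 11. The number of starts was similar, with 1.51 per gene for these genes and 1.40 for all protein-coding genes. Among genes with a single start, 33 of 38 had a control peak (86.8%), against 58.4% of all such genes. Counting a peak at an end or at a start, 46 of 60 genes had a control peak (76.7%, against 64.1%) and 48 a siRNA peak (80%, against 67.4%). Against 5598 of all 20033 genes, 11 of the 60 had none in either list, among them SETD1B, SMYD1, KDM4E, KDM4F, KDM5D, PRDM1, PRDM2, PRDM14, PRDM15 and PRDM16. No annotated start was given for 7 genes, among them SETD1B, NSD3, KDM4E, PRDM6, PRDM14 and PRDM16.

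**Figure D1:**
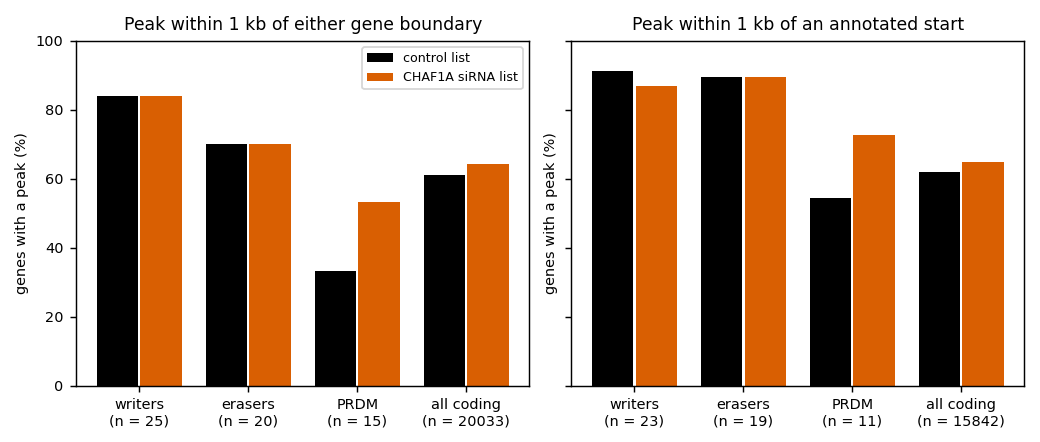
Bars give the percentage of genes with a peak in the control list (black) and in the CHAF1A siRNA list (orange), for writers, erasers, PRDM genes and all protein-coding genes, within 1 kb of a gene boundary (left) or of an annotated start (right). Writers and erasers stand above all protein-coding genes in both panels and PRDM genes below them at boundaries, with 1 list per group and no error bars.

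Among the writers of H3 lysine 4, the gene ends of KMT2A, KMT2B, KMT2C, KMT2D and KMT2E and of SETD1A carried peaks in both lists. The strongest was at KMT2E, a KMT2 relative without established enzyme activity. Fold enrichment is the ratio of reads at the summit to the local background, with 1 added to each. For the control peak of KMT2E (chr7:105012572-105014254) it was 7.38. The −log10 q of this peak was 91.2. The siRNA peak had 8.27 and 136, with 251 reads at the summit against 183 in the control list. The peak also covers the divergent RNA gene KMT2E-AS1. KMT2A, the trithorax homologue rearranged in leukaemia, had 5.54 (control) and 4.93 (siRNA), and KMT2B had 4.79 and 3.96 at a site within 1 kb of ZBTB32. KMT2C and KMT2D methylate enhancers. KMT2C had 4.28 and 3.35. SETD1A, a catalytic subunit of the main promoter complex, had 3.8 and 3.11 over a wide peak of 1518 bp (control) and 2151 bp (siRNA).

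At KMT2D the strongest peak of each list lay at the 3′ boundary (chr12:49018179-49018880 in the control list), within 1 kb of PRKAG1 and DDN-AS1. Fold enrichment was 3.63 with 88 summit reads there, and 4.03 with 166 reads after the CHAF1A siRNA. The KMT2D start itself had a weak control peak (fold enrichment 2.73, −log10 q 8.86) and no siRNA peak within 1 kb. SETD1B, the paralogue of SETD1A, had no peak within 1 kb of its boundaries and no given start, but 8 control and 10 siRNA peaks inside, the nearest 1685 and 1754 bp from a boundary. Its strongest inside control peak (chr12:121812530-121813103) reached a fold enrichment of 5.26.

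The writers of lysine 36 are SETD2 and the NSD genes. SETD2, which makes the trimethyl mark, had 6.02 (control) and 5.4 (siRNA), 249 bp from its outer boundary and over its given start. NSD2 had 3.90 and 3.74. NSD3, which has no given start, had 5.37 and 4.24 at the boundary within 1 kb of PLPP5 and 3.71 and 3.36 at its other boundary. NSD1, altered in Sotos syndrome, had a siRNA peak only at its boundary (fold enrichment 2.41, −log10 q 7.94). That peak overlapped a control peak which began 1086 bp from the boundary, just past the window. The control peak lay over the second given start with a fold enrichment of 2.78. The strongest siRNA peak within 1 kb of that start had 2.80 and a summit 775 bp past the start, and no control peak overlapped it. With a 3 kb window NSD1 was not among the siRNA-only genes. Why the peaks of the lists differed in position was not tested.

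The writers of H4 lysine 20 differed among themselves. KMT5C had the second highest −log10 q of all writers in the control list and the third highest in the siRNA list (chr19:55338786-55339940, fold enrichment 7.48, −log10 q 214 with 428 summit reads in the control list, and 6.19, 149 and 348 in the siRNA list). KMT5A, the monomethylase of the cell cycle, had peaks at each of its 2 given starts: the outer had 5.53 (control) and 5.43 (siRNA), the inner 3.98 and 4.53. KMT5B had no peak within 1 kb of any of its 3 starts in either list, although these windows held 46 to 52 CpG. Its only end peak was a control peak of fold enrichment 2.92 and −log10 q 5.16 at the 3′ boundary, 997 bp away and so at the edge of the window.

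The remaining SETD and SMYD genes ranged from the strongest site of all to no site. SETD9, a little studied family member, had the highest fold enrichment and −log10 q of all 60 genes (chr5:56909220-56910443). Its fold enrichment was 13.85 and its −log10 q 242 in the control list, and 12.11 and 231 in the siRNA list, with 322 and 333 summit reads. SETD5 had 6.56 and 6.63 and SETD4 6.21 and 6.38. SETD7, a monomethylase of lysine 4 and of other proteins, had 5.49 and 4.13. SETD6 had 3.22 and 2.91 at different sites, and the siRNA peak that overlapped its strongest control peak had 2.66. SETD3, now known as an actin histidine methyltransferase, had no peak at its boundaries, but at its given start it had 8.72 in the control list (−log10 q 131, 232 reads) and 5.67 in the siRNA list (57.4, 144 reads). SMYD4 had 8.92 and 8.23 at a site shared with RPA1, a gene of the single-strand binding complex of replication. SMYD5 had 5.80 and 6.31, SMYD2 4.24 and 4.04, and SMYD3 3.56 and 3.29. SMYD1, a gene of heart and skeletal muscle, had no end or start peak in either list.

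Among the erasers the 4 strongest sites by fold enrichment at gene ends were those of KDM4A, KDM1B, KDM8 and KDM4B. KDM4A, which removes methyl groups from lysines 9 and 36, had 11.44 in the control list (chr1:43649777-43650682, −log10 q 168, 249 reads) and 10.14 in the siRNA list (149, 239 reads). KDM4B had 7.31 and 5.41, with 197 and 147 reads. KDM4C had no boundary peak and 6.19 and 5.61 at its given start. KDM4D, near CWC15, had 4.77 with 34 reads and 4.53 with 42 reads, the latter at the other boundary. KDM4E and KDM4F, its neighbours on chromosome 11, had none. The KDM4 family thus ran from the strongest eraser site to no site.

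KDM1A, also known as LSD1, had 6.40 (control) and 5.17 (siRNA), with 46 and 48 summit reads over peaks with the same edges (chr1:23019265-23019756). KDM1B had 10.42 and 8.77 at a site within 1 kb of TPMT. KDM2A and KDM2B recognise unmethylated CpG. KDM2A had 5.60 and 4.74 at its outer start and 7.10 and 5.52 at its inner start, which gives the shorter form without the JmjC domain. KDM2B had no peak at its 3 outer starts in either list, and at its inner start 5.31 (control) and 3.05 (siRNA). Of the KDM2B starts, only the inner one had a peak within 1 kb, and a peak inside the gene away from any start (chr12:121443170-121443976 in the control list) was stronger, with 5.73 and 3.82. KDM3A, a lysine 9 demethylase, had 7.40 and 6.20 at its starts, which lie inside the annotated boundary, and KDM3B had 4.46 and 3.91.

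The lysine 4 erasers KDM5A, KDM5B and KDM5C had 5.74, 3.88 and 4.41 in the control list and 5.47, 3.34 and 3.68 in the siRNA list. KDM5D, on chromosome Y, had no peak, and the nearest peak of either list lay 5397805 bp from its boundary. Whether these cells carry chromosome Y was not checked, and KDM5D stays in the eraser shares as a gene without a peak. The lysine 27 erasers differed in shape. KDM6A, mutated in several cancers, had 5.87 and 5.05 with 110 and 125 reads. KDM6B had a wide peak of 1408 bp (control) and 2236 bp (siRNA), with 415 and 727 summit reads, but over local backgrounds of 82.2 and 160 reads, so that its fold enrichment was only 5.00 and 4.52. Its summit lay 1298 bp past the outer start, and DNAH2 lies within 1 kb. The siRNA peak of KDM6B also spans a further control end peak (chr17:7833805-7834285, fold enrichment 4.17), so the widths do not compare like with like. KDM7A, an eraser of lysines 9 and 27, had 6.37 and 5.4, and KDM8, also called JMJD5, had 10.27 and 7.85.

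PRDM genes had the fewest sites. PRDM4 and PRDM10, which are broadly expressed, had 8.91 and 6.99 in the control list and 8.07 and 6.10 in the siRNA list. PRDM7, a copy of the meiotic gene PRDM9, had 5.71 and 4.10. PRDM8 had 4.56 and 3.30 at a site 987 bp from its boundary in the control list, just inside the window, and PRDM12, a gene of sensory neurons, had 3.35 and 3.16 at opposite ends. PRDM11 had no boundary peak, the nearest control peak being 1381 bp away, and 5.57 and 4.49 at its innermost given start. PRDM6, PRDM9 and PRDM13 had an end peak in the siRNA list only. PRDM9 had a fold enrichment of 3.27 with 30 reads, PRDM13 2.71 with 26 reads and PRDM6 2.50 with 25 reads. Their −log10 q of 6.32, 3.95 and 3.23 were low within the siRNA list, whose end peaks of protein-coding genes had a median of 16.0. Close copies such as PRDM7 and PRDM9 can exchange reads, and the treatment of reads with several matches is not stated in those sources that were used.

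**Figure D2:**
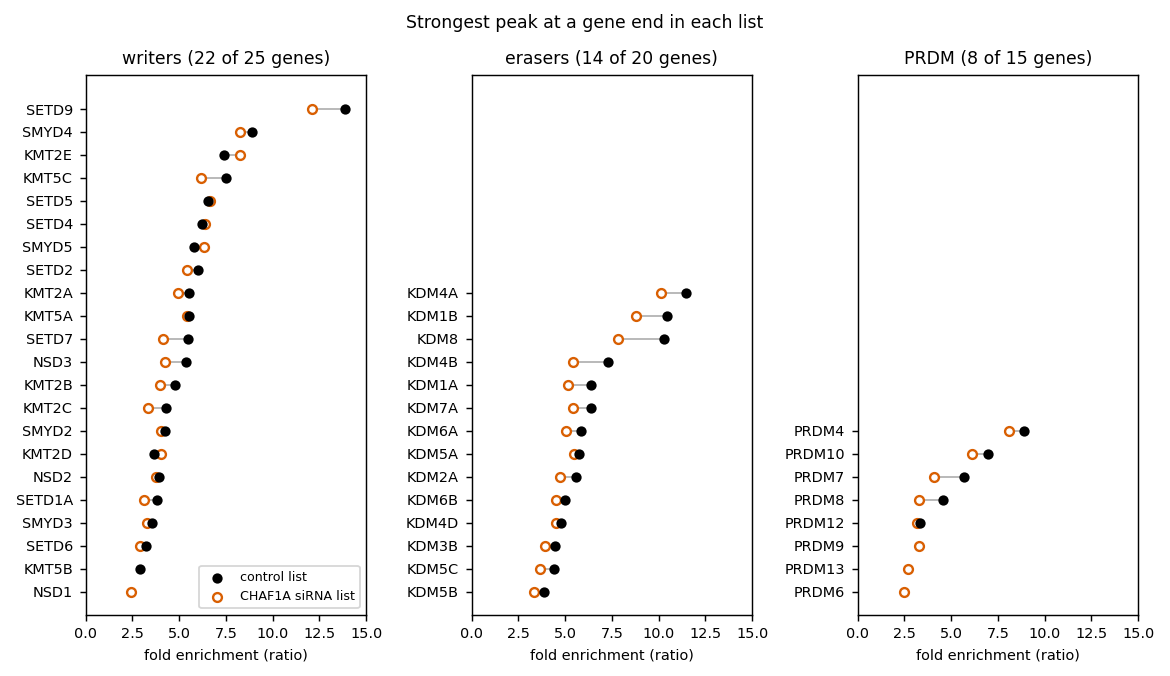
Each row is a gene with an end peak, and the horizontal axis is the fold enrichment of its strongest end peak in the control list (filled black) and the CHAF1A siRNA list (open orange), 1 value per list. SETD9 is highest at 13.85, erasers lie at or below 11.44, and the control-only KMT5B and the siRNA-only NSD1, PRDM6, PRDM9 and PRDM13 sit at the low end.

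PRDM2 stood in a long stretch without peaks. Around PRDM2 (chr1:13700188-13825079), which encodes a lysine 9 methyltransferase, no peak lay between 13328746 and 14346098 in the control list, a gap of 1020 kb, or between 13328606 and 15049601 in the siRNA list. Other protein-coding genes in the shared gap included PDPN, LRRC38 and 4 members of the PRAME family, and KAZN reaches into it. Of 19970 protein-coding genes off chromosome Y, 182 (0.911%) had no peak of either list within 300 kb of a boundary. The given outer start of PRDM2 held 36 CpG in 300 bases.

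The second comparison sets the 2 lists side by side. A control peak alone was found at the ends of 1 gene, KMT5B (1.67%, against 4.9% of all protein-coding genes), and a siRNA peak alone at 4 genes, NSD1, PRDM6, PRDM9 and PRDM13 (6.67%, against 8.07%). No eraser had an end peak in 1 list only with this 1 kb window. Both lists had a start peak at 43 genes (81.1%, against 57.8%). At starts, KMT2D had a control peak alone (against 4.2%), and PRDM9 and PRDM13 a siRNA peak alone (against 7.13%). With equal numbers of peaks per list, or with the siRNA depth scaled to the control background, only NSD1 and PRDM9 remained as siRNA-only genes, and KMT5B stayed control-only. With a 3 kb window the genes changed. PRDM11 was then control-only, and the eraser KDM4F, SETD3, PRDM6, PRDM9 and PRDM13 were siRNA-only.

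At 39 genes an end peak of the control list overlapped one of the siRNA list. The median log2 ratio of siRNA to control fold enrichment was −0.19, against −0.22 over the 10870 protein-coding genes with such a pair, whose middle 50% ran from −0.40 to −0.05. Fold enrichment depends on the depth of its list, so each ratio is read only against that median. Of the 39 genes, 21 lay above the median of all genes. For the erasers the median was −0.23, with all 14 between −0.43 and −0.07 and none with a higher value in the siRNA list. For the writers it was −0.14, with 20 genes from −0.41 to 0.16. The 5 genes with a higher value in the siRNA list were all writers: KMT2E (0.16), KMT2D (0.15), SMYD5 (0.12), SETD4 (0.04) and SETD5 (0.01). Over all genes 19.5% of pairs had a higher siRNA value, and 12.8% of these did. Among the 39 genes the lowest ratios were at PRDM7 (−0.48), PRDM8 (−0.47), KDM4B (−0.43), SETD7 (−0.41) and KDM8 (−0.39), all within the range of all genes. Peaks at starts that lie past the boundary windows are not among these ratios. There fold enrichment went from 5.31 (control) to 3.05 (siRNA) at KDM2B and from 8.72 to 5.67 at SETD3. At the inner start of KMT5A it went from 3.98 to 4.53. SMYD5 had 117 summit reads over a background of 19.3 in the control list and 222 over 34.3 in the siRNA list, so its summit and its background were both higher.

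**Figure D3:**
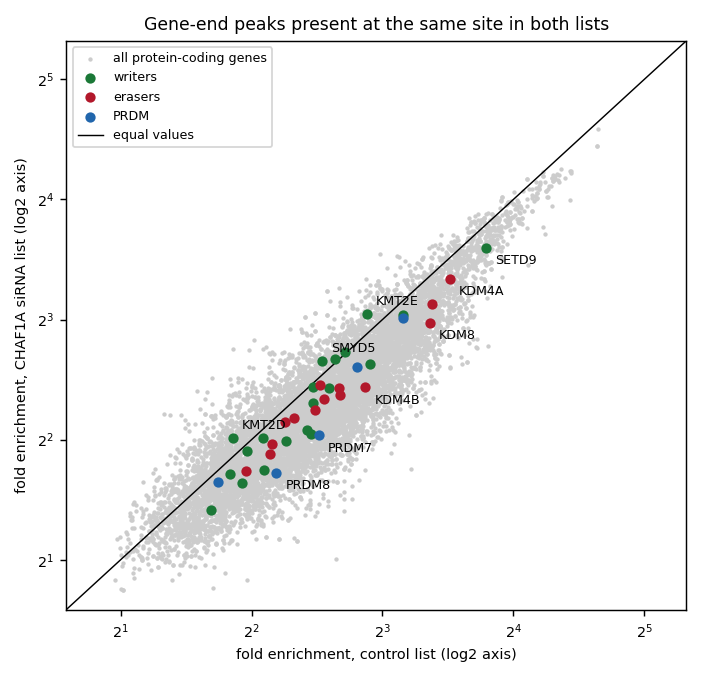
Each point is a gene whose control and siRNA end peaks overlap, with fold enrichment in the control list on the horizontal and in the CHAF1A siRNA list on the vertical axis (both log2 axes), grey for all 10870 protein-coding genes and coloured for the 39 genes described here. The coloured points lie within the grey cloud, most of them under the line of equal values, and KMT2E, KMT2D and SMYD5 lie above it.

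Of the 55 control peaks at the ends of these genes, 49 were overlapped by a siRNA peak (89.1%, exact 95% interval 77.8 to 95.9). The share was 83.6% for the end peaks of all protein-coding genes. Of 56 siRNA end peaks, 47 were overlapped by a control peak (83.9%, 71.7 to 92.4, against 74.3%). Intervals cover counting error only. PRDM genes had the lowest share in the siRNA list, 6 of 10. The median width of the strongest control end peak was 928.5 bp for KMT genes, 864 bp for SETD genes, 591 bp for SMYD genes, 673 bp for erasers and 674 bp for PRDM genes, against 636 bp for all protein-coding genes. In the siRNA list the KMT median was 1258 bp and the PRDM median 242 bp, against 698 bp. At 20 of the 40 genes with a control end peak, the strongest one also lay within 1 kb of another annotated gene, and at 10 of them of a protein-coding one, so a peak cannot be assigned to 1 gene from position alone.

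The peaks at starts lay mostly just upstream. For the 44 genes with a control start peak the median summit position was −122 bp from the nearest start (middle 50% from −256.5 to −3.25), against −74 bp for all protein-coding genes, and 28 lay within 250 bp of the start (63.6%, against 70.6%). In the siRNA list the median was −162 bp, against −62 bp. The 300 bases at each start, 250 before it and 50 from it on, held a median of 28 CpG over the 80 starts of these genes, against 21 over all 22198 starts of protein-coding genes. Starts with a control peak had a median of 29.5 CpG, and those without one 15. Over all protein-coding genes these medians were 26 and 8. None of the 7 starts with up to 4 CpG had a peak in either list, against 14.7% (control) and 18.5% (siRNA) of all such starts. Of the 24 with 20 to 29 CpG, 22 had a control peak (91.7%, against 77.8% of all such starts), and of the 35 with 30 or more, 28 did (80%, against 75.2%). Starts of a gene are not independent, because the same peak can count for several of them. All 4 SETD9 starts, for example, fall among those with 20 to 29 CpG and share a peak. Exceptions at the CpG-rich end were the starts of KMT5B, the outer start of PRDM15, 2 starts of PRDM2 and 1 outer start of KDM2B.

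**Figure D4:**
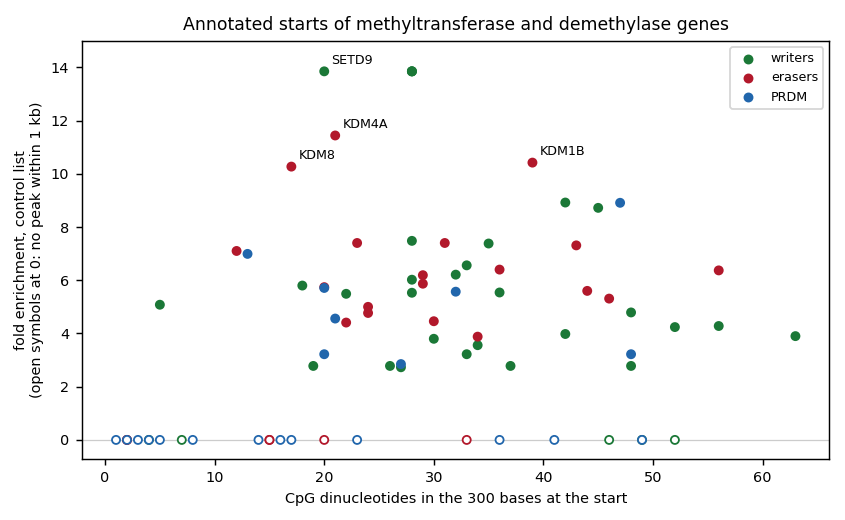
Each point is 1 of the 80 annotated starts, with the number of CpG in its 300 bases on the horizontal and the fold enrichment of the strongest control peak within 1 kb on the vertical axis, open symbols at 0 meaning no peak. Starts with up to 4 CpG all sit at 0, the highest values (SETD9, KDM4A, KDM1B, KDM8) span 17 to 39 CpG, and several CpG-rich starts sit at 0.

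Motifs were searched on both strands of the same 300 bases. Starts of a gene can lie close together, as those of SETD9 at 56910057 and 56910062 do. Their windows then overlap, so the same motif can be counted more than once. The GC box GGGCGG was in 57 of the 80 starts (71.2%), against 56.3% of all starts. It was in 45 of the 56 starts with a control peak and in 12 of the 24 without. The CCAAT box (CCAAT) was in 31 (38.8%, against 34.7%), the ETS motif CCGGAAG in 9 (11.2%, against 12.8%) and the E-box CACGTG in 9 (11.2%, against 8.34%). The YY1 motif, a fixed word of 10 letters, was in 6 (7.50%, against 1.68%), 3 with and 3 without a control peak. The NRF1 motif, also of 10 letters, was in 1 (against 1.5%), and the TATA box TATAAA in 3 (3.75%, against 9.47%). The cyclic AMP response element TGACGTCA was in none, against 2.26% of all starts. GC boxes overlap CpG-rich sequence by their own letters.

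Inside the genes, past 1 kb of either boundary, lay 152 control and 231 siRNA peaks, in 38 genes (63.3%, against 49.5%) and 45 genes (75%, against 56%). In both lists 36 genes had one (60%, against 44.5%), in the control list alone 2 (3.33%, against 5.02%), in the siRNA list alone 9 (15%, against 11.5%) and in neither 13 (21.7%, against 39%). The genes described here are longer, with a median of 61.0 kb against 24.1 kb, so density per length is the fairer measure. It was 2.60 control peaks per 100 kb, against 2.51 over all protein-coding genes, and 3.95 siRNA peaks, against 3.36. Writers had 3.00 and 5.07, erasers 2.90 and 3.72, and PRDM genes 1.48 and 2.33. With equal numbers of peaks per list the counts were 152 and 165. Of the inside peaks, 63.8% in the control list (97 peaks) and 39.4% in the siRNA list (91 peaks) were overlapped by the other list, against 56.6% and 41.4% for all protein-coding genes.

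SMYD3, the longest of the genes, had 20 control and 25 siRNA inside peaks, close to the density of all genes, with 11 of each shared and the strongest at chr1:246232863-246234398 (fold enrichment 8.90). KDM2B and KDM4B had 11 control peaks each and 18 and 19 siRNA peaks, of which 7 were shared in each gene. KMT2D, of 41817 bp, had 7 and 12, and PRDM11 9 and 10. KDM6B had 4 in each list and all were shared, with −log10 q of up to 62.6 (control) and 94.1 (siRNA). Several long genes held few, such as KDM4C with 4 and 1 and PRDM16 with 2 and 8.

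KMT2C, which encodes an enhancer methyltransferase, had 2 control and 13 siRNA inside peaks, of which 1 in each list overlapped the other. The siRNA peaks had fold enrichments of 2.53 to 4.64 and −log10 q of 3.07 to 15.1. With equal numbers of peaks per list the counts were 2 and 10, and with the siRNA depth scaled they were again 2 and 10. Among the 915 other protein-coding genes of 200 to 400 kb, 17 (1.86%) had an excess of siRNA peaks as large as the 11 of KMT2C, and 5 (0.546%) with equal numbers of peaks. KMT2C was singled out after its values had been seen. RefSeq lists 4 pseudogenes of KMT2C, which may share reads with it, and their part in the counts was not tested. NSD3 had no control and 5 siRNA inside peaks, with −log10 q of at most 9.76, and 2 with equal numbers of peaks per list.

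**Figure D5:**
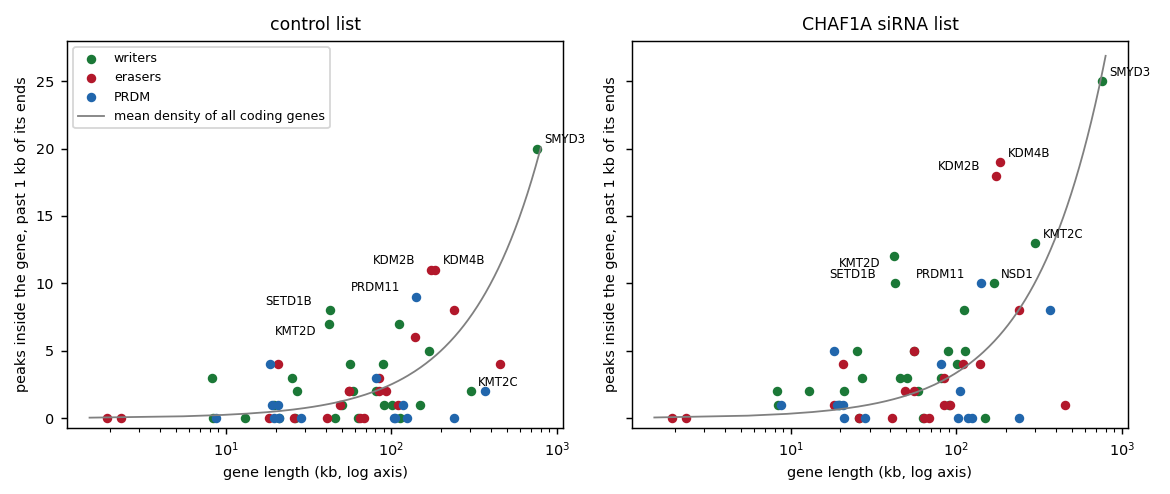
Each point is 1 of the 60 genes, with gene length in kb (log axis) on the horizontal and the number of peaks inside it past 1 kb of its ends on the vertical axis, for the control list (left) and the CHAF1A siRNA list (right), and the line is the mean density of all protein-coding genes. SMYD3 lies near the line, KDM2B, KDM4B, KMT2D and SETD1B lie above it, and KMT2C is at 2 on the left and 13 on the right.

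Partners of these enzymes that do not carry the symbols were counted in 5 lists, to be read against the end peaks of 61.1% (control) and 64.3% (siRNA) of all protein-coding genes. Of 13 COMPASS subunits, which activate the KMT2 and SETD1 enzymes, 12 had an end peak in each list, led in −log10 q by ASH2L (fold enrichment 20.28 (control) and 17.86 (siRNA)) and MEN1 (9.44 and 9.02). WDR5 had a siRNA peak only (2.05) and PSIP1 a control peak only (4.09). All 12 genes of PRC2, the complex that methylates lysine 27, had a control peak and 11 a siRNA peak, led in −log10 q by RBBP4 (9.20 and 8.25) and PHF1 (6.69 and 5.05). EPOP was in the control list only (2.82). Of 10 other lysine methyltransferases 9 and 10 had one, with SETDB2 (10.45 and 9.67) and SUV39H1 (7.62 and 7.31) strongest by −log10 q and EHMT2 in the siRNA list only (2.46).

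Of 10 CoREST genes, which encode partners of KDM1A, 8 and 9 had an end peak, again beside 61.1% (control) and 64.3% (siRNA) of all protein-coding genes. RCOR1 had 7.36 and 7.60 and ZMYM2 8.46 and 6.14. RCOR2 had a siRNA peak only (2.77) and GSE1 none. The other JmjC genes had 6 of 11 in each list, to be read against the same shares. JMJD6 (6.91 and 5.89) and HIF1AN (7.88 and 6.75) had the highest −log10 q in the control list, and RIOX1 (6.07 and 7.22) the highest fold enrichment in the siRNA list. RIOX2 was in the control list only (3.81), PHF2 was in the siRNA list only (4.07), and UTY, PHF8, HR and JMJD7 had none. The strongest site of this wider set, at ASH2L, was higher in fold enrichment than any of the 60 genes.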

How the data were processed

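The data are 2 CHAF1A CUT&Tag peak lists of RBE cells, 1 per group of 2 samples. The submitters' processing notes name MACS2 2.1.2, Bowtie2 2.2.5, fastp 0.20.1 and deepTools 3.4.3, and the build hg38. Pooling of samples and use of a control library are not stated in them. In the deposited lists the fold enrichment is a linear ratio, p and q are −log10 values, and the score follows −log10 p and was not used. The lowest −log10 p was 5.00.

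Peaks outside chromosomes 1 to 22, X and Y were left out (868 and 886). Summit reads and background were solved from fold and p for peaks with −log10 p under 290 (99.1% and 99.2% of peaks, 99.99% of those whole within 0.02 reads). The solving step was tested on 18745 simulated pileups, and all were recovered. The search for gene-end peaks was compared with a separate overlap program for 2000 genes and the control list, and all results were the same. Overlap meant at least 1 bp. Genes and starts came from RefSeq GRCh38.p14. Alternatives were equal peak numbers in both lists, stricter thresholds (−log10 q from 5 or from 10), scaled siRNA depth, a 3 kb window, summits in place of peaks, 50% reciprocal overlap, PRDM genes counted as writers, sites shared anywhere, and other values and pairs for the ratio. Counting annotated starts as ends was an addition made once the values were known.

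The genes and lists were chosen with earlier results of these data known. The rule gave values for the 5 strongest genes per class, all genes with an end peak in 1 list only and the 5 with most inside control peaks. In partner lists it gave the 2 strongest genes and those in 1 list only. Other members are named by role. Of the promoters, the rule's picks were replaced, after the values had been seen, by those whose summits lie in the printed bases and by 2 without peaks. Software was scipy 1.17.1, pandas 2.3.3, matplotlib 3.10.9 and numpy 2.4.6 under Python 3.11.15. Some genes counted here are not reported by name.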

Additional observations from a re-analysis of the deposited data

How the results depend on the processing

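No paired analysis was possible because each group has 1 peak list that does not separate its 2 samples, and leaving out a replicate was not run for the same reason. Of the values recomputed, 102 stayed within 1.5 times the reported count, within its interval or within 0.1 on the log2 scale, and 15 moved. A count that stayed can stand for other genes, as with the 1-list-only genes in the 3 kb window. The siRNA-only genes at gene ends went from 4 to 2 with −log10 q of at least 5, with equal numbers of peaks and with scaled siRNA depth, and to 0 where −log10 q had to reach 10. Genes in the control list alone became 2 in place of 1 with the threshold at 10 (KMT2C and PRDM8) and with summits in place of peaks (KDM5B and KDM6B), in each case without KMT5B. At that threshold of 10 for −log10 q, PRDM genes with a siRNA end peak fell to 4, and inside peaks to 63 (control) and 77 (siRNA). The overlapped share of all control peaks of these genes (70.5%) became 82.4% at the threshold of 10 and 47.3% with 50% reciprocal overlap. That of the siRNA peaks (48.1%) became 54.4% with −log10 q of at least 5, 70.0% with at least 10, 59.2% with equal numbers of peaks and 34.1% with 50% reciprocal overlap. For the thresholds and the overlap rule, fewer peaks or a stricter definition follow from the alternative itself; the cause of the other moves was not tested. How much depth limits weak sites was not tested.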
